A study of Mus musculus with 4 samples.

Results

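The genes of the cytotoxic granule were followed in NKT cells, T cells whose receptor reads lipids bound to CD1d, of the SI-LP. The 10 genes were taken by symbol from the deposited table of 25239 genes: the granzymes *Gzma*, *Gzmb*, *Gzmc*, *Gzmk* and *Gzmm*, the pore former *Prf1*, and *Nkg7*, *Srgn*, *Ctsw* and *Lamp1*. All 10 were found, and 8 of them passed the filter on low counts (10 or more counts in 2 or more libraries) that 11689 genes passed; *Gzmk* and *Gzmm* did not. The data were 4 RNA-seq libraries of iNKT cells from the lamina propria of C57BL/6 WT mice, without treatment given in the labels. Their titles number them WT1 to WT4 and mark replicates 3 and 4 First and replicates 1 and 2 Second. The titles do not say what First and Second stand for. The 2 sets of 2 libraries are called the first and the second experiment here. Values written as a pair against a pair are replicates 1 and 2 (second experiment) against replicates 3 and 4 (first experiment), in this order. According to the methods, the mice were males and females aged 7 to 10 weeks, were injected with an anti-ARTC2 nanobody before tissues were taken, and the cells were sorted as live TCRβ+ CD1d tetramer+ cells negative for B220, CD11b, CD11c and CD8. All libraries belong to 1 condition, so the values describe levels and their spread; lymphoid NKT cells are not analysed here, and no source used here says whether each library came from 1 mouse or from pooled mice.

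Cytotoxic lymphocytes store perforin and granzymes in secretory lysosomes, bound to the proteoglycan serglycin (*Srgn*). On contact with a target cell the granules fuse with the plasma membrane, perforin opens pores in the target and granzymes enter it and cleave their substrates there. Granzymes are made as inactive precursors that the dipeptidase cathepsin C (*Ctsc*) trims, they reach the granule through the receptors for mannose phosphate, and the cell guards itself with intracellular serpins. NKT cells, in particular those with the T-bet programme, are known to carry such granules besides making cytokines.

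The libraries held between 3882803 and 8732858 counts on genes, and *Rn45s*, the precursor of ribosomal RNA, took 7.36% to 28.1% of them. T cell markers were present in every library, with all 7 above 3 counts, but were lower in replicates 2 and 4. Summed over these 7 genes (*Cd3e* and 6 others), the level was 2603 and 1019 against 3469.5 and 1321 CPM. CPM are counts brought to the same library size by edgeR's TMM factors. The summed level of the 21 epithelial markers went the other way. It rose from 1031 to 8552.9 CPM between replicates 1 and 2 and from 243 to 29653 CPM between replicates 3 and 4. *Lyz1* and *Tff3* were the highest by mean TPM. *Lyz1* alone had 301 and 338 against 10.5 and 21151 CPM, so it made up most of the sum in replicate 4. Plasma cell markers (5 genes, *Jchain* and *Mzb1* the highest by mean TPM) summed to 6279 and 6542 against 6.70 and 242 CPM. *Jchain* alone had 6099 and 6383 against 2.46 and 196 CPM, so it made up most of the sum except in replicate 3. Of other cells that carry granule proteases, the NK cell genes *Ncr1*, *Eomes*, *Klra4* and *Klra8* and the mast cell genes *Fcer1a*, *Ms4a2*, *Mcpt1*, *Mcpt2*, *Tpsb2* and *Gata2* had 0 counts in all 4 libraries, and *Cd8a* had at most 1.15 CPM. Of the CD8 and gamma delta T cell list, 3 of 5 genes were in the table and summed to 0.139 to 29.9 CPM, the highest value from *Sox13* in replicate 4. The remaining NK markers *Khdc1a* and *Klri2* had at most 19.4 and 22.7 CPM, and the whole NK list, with 4 of its 6 genes at 0, summed to 6.25 to 22.8 CPM. The mast cell list, with 6 of 9 genes at 0, summed to 5.82 to 74.4 CPM, with *Kit* and *Hdc* the highest. Myeloid markers summed to 22.3 to 99.1 CPM and stromal and endothelial markers to 26.1 to 189 CPM. B cell markers summed to 53.1 and 52.3 against 0.446 and 0 CPM. In bulk libraries, fewer cells of a type and less RNA per cell cannot be told apart.

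The granule genes made up between 0.120% and 0.237% of all counts in a library. Their summed counts were 17174 in replicate 1 (0.237%, 95% Wilson interval 0.234% to 0.241%), 11106 in replicate 2 (0.127%, 0.1248% to 0.1296%), 9683 in replicate 3 (0.176%, 0.173% to 0.180%) and 4665 in replicate 4 (0.120%, 0.117% to 0.124%). These intervals cover counting error only, with each count taken as independent, and not the spread between libraries. Replicates 1 and 3 were the higher pair. Levels of different genes were compared as TPM, which also divides by gene length. On this scale the 10 genes summed to 5405, 2247, 3953 and 2138 TPM in replicates 1 to 4, and *Nkg7*, *Srgn* and *Gzmb* alone held 89.7%, 77.7%, 83.2% and 72.3% of these sums. The median of the 8 genes that passed the filter stood at percentile 94.0 by mean TPM among the 11689 genes. *Nkg7* was at rank 99, *Srgn* at rank 126 and *Gzmb* at rank 194, at percentiles 99.2, 98.9 and 98.3.

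**Figure D1:**
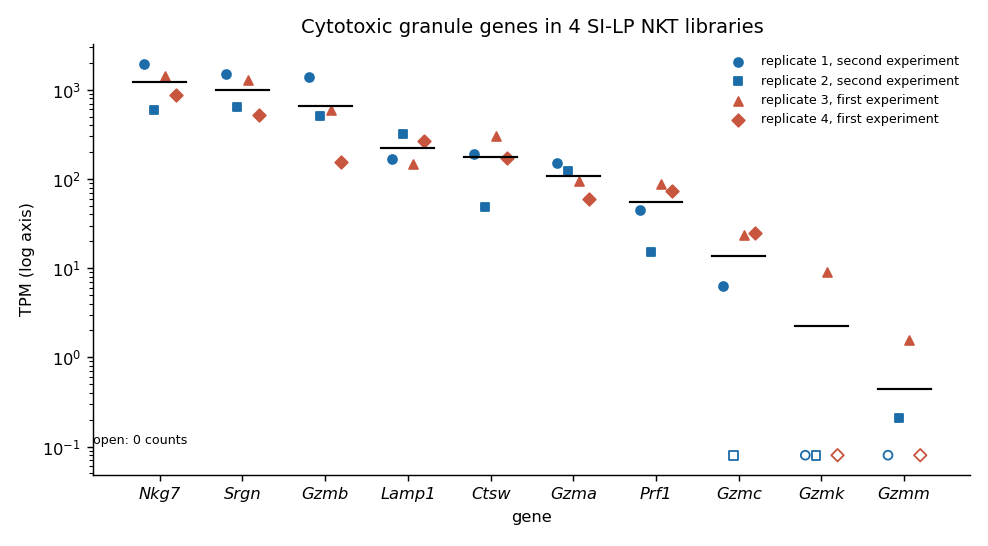
Level of each of the 10 cytotoxic granule genes in TPM (log axis), ordered by mean, in the 4 SI-LP NKT libraries. Symbols are single libraries (blue, second experiment; red, first experiment), black bars the mean of 4, and open symbols libraries with 0 counts. *Nkg7*, *Srgn* and *Gzmb* lead, with means of 1209, 989 and 659 TPM, while *Gzmk* and *Gzmm* are near the lower end of what the depth can show.

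In the order of mean TPM, *Nkg7* (1209 ± 605 TPM, SD, n = 4) and *Srgn* (989 ± 482) came first, then *Gzmb* (659 ± 515), *Lamp1* (224 ± 80.1), *Ctsw* (177 ± 103), *Gzma* (107 ± 39.7), *Prf1* (55.3 ± 31.7) and *Gzmc* (13.6 ± 12.3). Only 2 of the 9 pairs of neighbours stood in the same order in all 4 libraries, *Srgn* above *Gzmb* and *Prf1* above *Gzmc*. *Srgn* exceeded *Gzmb* by 0.83 ± 0.74 log2 units (SD, n = 4) on the log2(TPM + 1) scale, with p = 0.13 by an exact two-sided permutation test with sign flips, the smallest value that 4 libraries allow. *Prf1* exceeded *Gzmc* by 2.52 ± 1.11 log2 units with the same p. The order was taken from these same libraries, so these p-values add nothing beyond the agreement of all 4. For the other 7 pairs, which include *Nkg7* with *Srgn* and *Lamp1* with *Ctsw*, the order was not the same in every library and the exact p ran from 0.25 to 1. The ranks within a library were nonetheless close: *Nkg7* and *Srgn* took the first and second place in all 4 libraries, in either order, and *Gzmb* followed them in replicates 1, 2 and 3 and stood at place 5 in replicate 4.

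The promoters of *Nkg7*, *Gzmb*, *Prf1* and *Gzmk* are shown since these genes mark the top of the list, the protease and the pore former whose ratio varied most among the pairs examined, and a granzyme with next to no counts. RUNX3 and T-bet are known to act at granule genes of cytotoxic T cells, so the 250 bases before each start were searched on both strands for a RUNX site (TGTGGT, or ACCACA on the other strand) and for a T-box half-site (GGTGTGA, or TCACACC). The letters of these sites can overlap where one follows the other, which happened 0 times in the 11 entries found for the granule genes. The sequences are RefSeq promoters on GRCm38.p6, 5′ to 3′ on the strand of the gene, with every match in capitals. *Nkg7* is at chr7:43436888-43437137 (plus strand), *Gzmb* at chr14:56262335-56262584 (minus strand), *Prf1* at chr10:61297586-61297835 (plus strand) and *Gzmk* at chr13:113180966-113181215 (minus strand).
Nkg7: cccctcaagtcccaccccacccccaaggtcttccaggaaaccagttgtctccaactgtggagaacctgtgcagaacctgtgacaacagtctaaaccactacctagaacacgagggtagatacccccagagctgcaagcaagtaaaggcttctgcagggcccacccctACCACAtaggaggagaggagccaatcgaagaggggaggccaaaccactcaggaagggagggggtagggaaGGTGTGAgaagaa
Gzmb: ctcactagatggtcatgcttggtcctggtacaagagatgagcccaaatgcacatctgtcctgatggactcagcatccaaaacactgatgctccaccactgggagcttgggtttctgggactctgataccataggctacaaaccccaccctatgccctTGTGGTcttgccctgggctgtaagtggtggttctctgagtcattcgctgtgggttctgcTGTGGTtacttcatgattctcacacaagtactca
Prf1: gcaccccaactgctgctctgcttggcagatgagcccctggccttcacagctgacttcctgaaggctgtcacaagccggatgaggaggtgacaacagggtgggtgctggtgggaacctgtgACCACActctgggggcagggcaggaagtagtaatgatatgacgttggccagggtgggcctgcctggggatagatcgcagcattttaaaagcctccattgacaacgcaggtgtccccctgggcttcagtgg
Gzmk: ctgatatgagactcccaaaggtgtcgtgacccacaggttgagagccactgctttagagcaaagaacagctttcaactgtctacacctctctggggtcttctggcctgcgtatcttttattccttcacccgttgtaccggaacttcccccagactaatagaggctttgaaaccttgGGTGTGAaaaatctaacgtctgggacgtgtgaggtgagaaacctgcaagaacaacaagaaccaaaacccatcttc

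*Nkg7* held both motifs, the T-box half-site 13 bases and the RUNX site 83 bases before the start, counted to the first letter of the match. *Gzmb* held 2 RUNX sites at 93 and 34 bases, *Prf1* held 1 at 130 bases, and *Gzmk* held a T-box half-site at 75 bases and no RUNX match. An entry was found for 9 of the 10 genes (not for *Ctsw*). At the start of the counted gene, 7 of these 9 held a RUNX match and 2 a T-box match, and over all 11 entries 8 held a RUNX match and 3 a T-box match. Of all 32851 promoters of this length, 14.0% held the RUNX letters and 3.33% the T-box letters. A match is a run of letters and not a measured binding site. *Runx3* and *Tbx21* were both expressed, and their levels are given with the transcription factors.

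Among the granzymes, *Gzmb* was the main transcript in each library. It encodes granzyme B, the protease that cuts after aspartate and activates caspases in target cells (chromosome 14, 56258836 to 56262334, minus strand, GRCm38, as are all positions below). Its level was 693 and 249 against 369 and 94.1 CPM. The highest library was 7.36 times the lowest, or 2.78 times without replicate 4 and 3.92 times without replicate 1, and the experiments overlapped. *Gzma* encodes granzyme A, a protease that cuts after basic residues (chromosome 13, 113093824 to 113100981, minus strand). It had 44.8, 34.7, 33.7 and 21.1 CPM in replicates 1 to 4, a range of 2.12 times (1.33 times without replicate 4), with both libraries of the second experiment above both of the first, the closest of them 34.7 and 33.7 CPM.

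Expression of the other granzymes was low or not detected. *Gzmc*, which lies next to *Gzmb* (chromosome 14, 56231401 to 56234657, minus strand), had 14, 0, 40 and 37 counts in replicates 1 to 4. Both libraries of the first experiment were thus above those of the second; the 0 in replicate 2 allows up to 0.287 CPM (3 counts). *Gzmk*, a further granzyme that cuts after basic residues (chromosome 13, 113171630 to 113180965, minus strand), had 18 counts in replicate 3, or 4.02 CPM, and 0 in the other libraries, which allows up to 0.416, 0.287 and 0.753 CPM in replicates 1, 2 and 4. *Gzmm*, which prefers methionine at the cut (chromosome 10, 79689020 to 79695261, plus strand), had 0, 1, 4 and 0 counts. These limits cover counting error only, because PCR copies are not independent molecules.

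The genes around *Gzmb* had no counts, apart from *Gzmc*. The locus from *Cma1* to *Gzmb* spans 320.9 kb and holds 17 annotated genes in the deposited table, among them the granzymes *Gzmd*, *Gzme*, *Gzmf*, *Gzmg* and *Gzmn*, cathepsin G (*Ctsg*) and the mast cell proteases *Cma1*, *Cma2*, *Mcpt1*, *Mcpt2*, *Mcpt4*, *Mcpt8* and *Mcpt9*. Of these, 15 had 0 counts in all 4 libraries, and the 2 with counts were *Gzmb* and *Gzmc*, which lie 24178 bases apart at one end of the locus. Some of the granzyme genes at 0 are close copies of each other, and reads that fit several of them equally well are uncertain in this kind of counting. *Gzma* and *Gzmk* are separated by 70648 bases on chromosome 13, and the gene between them, *1700084D21Rik*, had 0 counts as well.

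**Figure D2:**
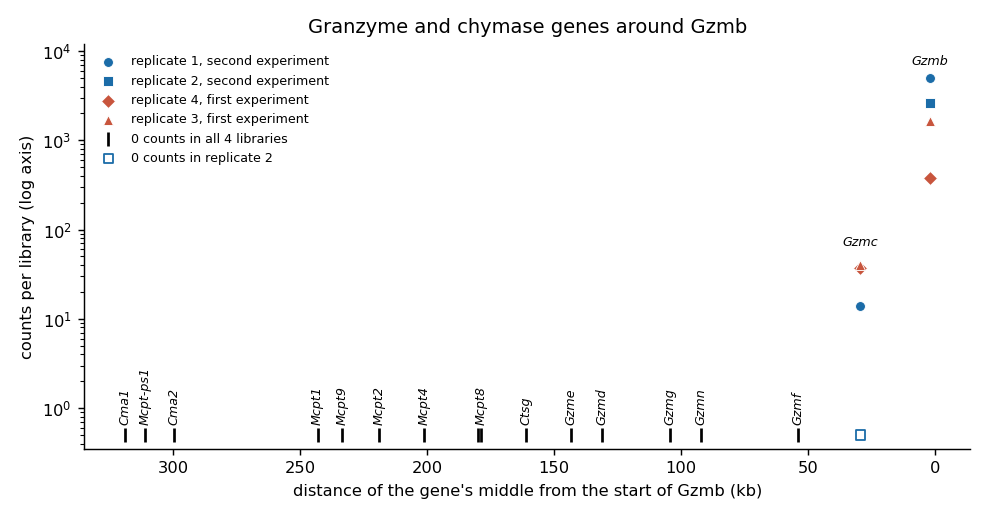
Counts per library (log axis) of the genes in the granzyme B and chymase locus against the distance of each gene's middle from the start of *Gzmb* in kb. Coloured symbols are libraries with counts, black ticks the 15 genes with 0 counts in all 4 libraries (a small RNA gene inside *Mcpt8* is drawn without its name), and the open square the 0 of *Gzmc* in replicate 2. Counts are seen at *Gzmb* (375 to 4999) and *Gzmc* (0 to 40).

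*Prf1* was highest in replicates 3 and 4, whereas *Gzmb* was highest in replicates 1 and 3. Perforin (chromosome 10, 61297836 to 61304263, plus strand) had 31.0 and 10.2 against 72.5 and 61.0 CPM, so both libraries of the first experiment were above both of the second. The highest was 7.08 times the lowest, or 2.34 times without replicate 2. At 55.3 ± 31.7 TPM it was at percentile 74.3, far down the list from *Gzmb*. *Ctsw*, which encodes cathepsin W, a cysteine protease of cytotoxic lymphocytes (chromosome 19, 5465043 to 5468507, minus strand), had the same order of libraries as *Prf1*: 90.1 and 22.6 against 175 and 99.4 CPM. The highest was 7.76 times the lowest, or 1.95 times without replicate 2 and 4.397 times without replicate 3. Its exons share 10 bases with those of *Fibp* on the other strand, and counts in that stretch cannot be assigned without strand.

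Of the granule membrane and matrix genes, *Nkg7* and *Srgn* had the highest mean TPM of all 10 genes, and *Lamp1* was below *Gzmb*. *Nkg7* encodes a granule membrane protein needed for efficient release (chromosome 7, 43437138 to 43438246, plus strand), and had 531 and 157 against 465 and 287 CPM. Its highest library was 3.38 times its lowest, or 1.85 times without replicate 2. *Srgn* (chromosome 10, 62493833 to 62527445, minus strand) had 864, 360.0, 898 and 361 CPM, with nearly equal values for replicates 1 and 3 and for replicates 2 and 4. *Lamp1* encodes the lysosomal glycoprotein CD107a, which appears on the surface when granules fuse and is present in the lysosomes of most cells (chromosome 8, 13159161 to 13175338, plus strand). It had 124, 229.5, 134 and 238 CPM, higher by over 0.5 log2 units in replicate 2 than 1 and in replicate 4 than 3. It was the only such gene of the 8 that passed the filter, where 25.7% of all genes tested were as well. The summed epithelial markers were higher in the same libraries, from 1031 to 8552.9 and from 243 to 29653 CPM, the last value mostly from *Lyz1*. Their part in the level of *Lamp1* was not tested.

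The make-up of the granule list therefore differed between libraries. *Gzmb* held 25.5% and 22.6% of the summed TPM of the 10 genes against 15.2% and 7.20%, whereas *Prf1* held 0.840% and 0.683% against 2.20% and 3.44%, and *Ctsw* 3.48% and 2.15% against 7.59% and 8.0%. *Nkg7* (26.5% to 40.8%) and *Srgn* (24.3% to 32.5%) kept the largest shares, and *Lamp1* held 3.08% and 14.1% against 3.75% and 12.4%. Ratios between pairs of genes within a library, which do not depend on how libraries are scaled, were taken for 6 pairs that were chosen after the levels had been seen, and are a description with no test. The TPM ratio of *Gzmb* to *Prf1* was 30.3 and 33.0 against 6.90 and 2.10. For *Gzmb* to *Ctsw* it was 7.31 and 10.5 against 2.00 and 0.901. *Gzmb* to *Gzma* was at 9.02 and 4.19 against 6.37 and 2.60, where the experiments overlapped, and *Gzmb* to *Nkg7* at 0.701 and 0.853 against 0.426 and 0.177. *Prf1* to *Ctsw* stayed between 0.241 and 0.430, and *Nkg7* to *Srgn* between 0.924 and 1.68, with the experiments overlapping for both.

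**Figure D3:**
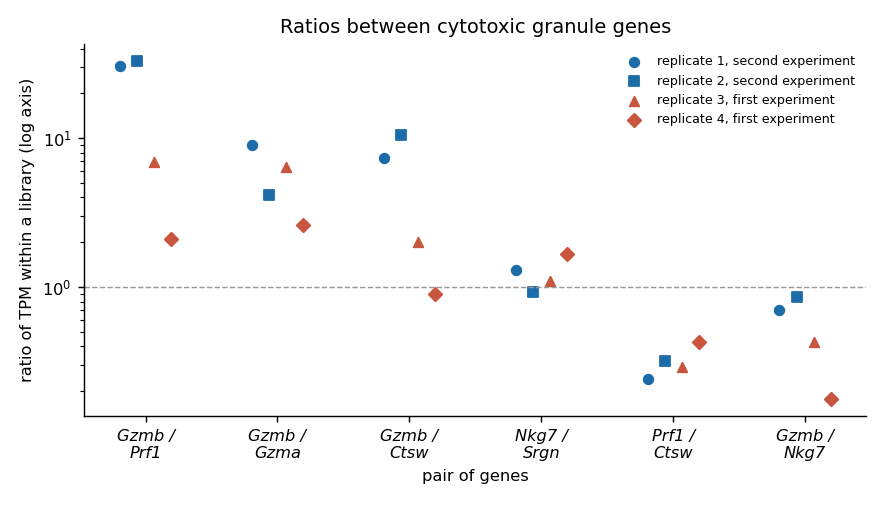
Ratio of TPM between 2 granule genes within each library (log axis) for 6 pairs. Symbols are single libraries (blue, second experiment; red, first experiment) and the dashed line marks equal levels. *Gzmb* over *Prf1* is at 30.3 and 33.0 against 6.90 and 2.10, while *Prf1* over *Ctsw* lies between 0.241 and 0.430. The pairs were chosen after the levels had been seen, and the ratios are a description with no test.

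The second experiment was compared with the first as a measure of replicate error. By edgeR's quasi-likelihood test with p-values adjusted over all genes after Benjamini and Hochberg, 0 of the 8 granule genes passed an adjusted p of 0.05, with 0% of the 11689 genes called. At an unadjusted p under 0.05 there were 0 of the 8 as well, beside 2.12% of all genes, and DESeq2 called 0 of the 8 by either measure, beside 0.351% of all genes at the adjusted and 4.44% at the unadjusted p. *Prf1* had the smallest p of the 8, with a log2 fold change (second minus first) of -1.69 (standard error 0.87, adjusted p = 0.9997, edgeR). *Ctsw* followed with -1.29 (standard error 0.82, adjusted p = 0.9997, edgeR), and *Gzmb* was at 1.03 (standard error 0.86, adjusted p = 0.9997, edgeR). The fold changes of *Nkg7*, *Srgn* and *Lamp1* were -0.13, -0.04 and -0.08 with standard errors of 0.74, 0.76 and 0.62, so these data do not exclude changes of more than 1 log2 unit either way. For *Gzmc*, with a library at 0, a fitted fold depends on the prior count and is not given. Each library has its own WT number in its title, but nothing in the sources used here says that the replicates were separate mice. These p-values therefore measure only the spread between these libraries.

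Counted by overlap alone, CPM of both libraries of the second experiment lay above both of the first for 1 of the 8 genes (*Gzma*), where 14.7% of all genes tested did so, and below for 3 of the 8 (*Gzmc*, *Prf1* and *Ctsw*), where 14.4% did so. The count of *Gzma* is near the background. Since T cell markers differed between the libraries, the granule genes were also set against the summed counts of the 7 T cell markers. *Cd3e* alone supplied 70.5, 60.4, 60.1 and 64.8 of every 100 of these counts in replicates 1 to 4, so the scale rests mostly on this gene. On this scale *Gzmb* had 26.6 and 24.5 counts per 100 T cell marker counts against 10.6 and 7.13. *Prf1* had 1.19 and 1.01 against 2.09 and 4.62, and *Ctsw* 3.46 and 2.22 against 5.06 and 7.52. *Gzma* had 1.72 and 3.40 against 0.971 and 1.596, and *Srgn* 33.2 and 35.3 against 25.9 and 27.3. Both libraries of the second experiment were above both of the first for these 3 genes (*Gzma*, *Gzmb* and *Srgn*), beside 15.6% of all genes tested, and below for *Gzmc*, *Prf1* and *Ctsw*, beside 6.84%. *Nkg7* overlapped, at 20.4 and 15.4 against 13.4 and 21.7. Plasma cell markers also separated the experiments, at 6279 and 6542 (mostly *Jchain*) against 6.70 and 242 CPM. So did the summed B cell markers, at 53.1 and 52.3 against 0.446 and 0 CPM. The part of these markers in the differences was not tested. The experiment and anything that differed with it cannot be told apart. All 10 genes together had 0.914, 1.04, 0.623 and 0.886 counts per T cell marker count in replicates 1 to 4, a range of less than 2 times.

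Within each experiment, 6 of the 8 genes were lower in replicate 2 than in replicate 1 and in replicate 4 than in replicate 3, beside 29.9% of all genes tested, as were all 7 T cell markers. Higher in both was *Lamp1*, 1 of the 8, beside 35.2% of all genes. With 1 library on each side these differences (log2 CPM with a prior count of 2) have no test. The median difference of the 8 genes was -1.52 log2 units in the second experiment and -0.68 in the first; that of all 11689 genes was 0.13 and 0.08 and that of the T cell markers -1.03 and -1.37. *Gzmb* (-1.47 and -1.97) and *Srgn* (-1.26 and -1.31) were lower by over 1 log2 unit in both, 2 of 8 genes where 8.08% of all genes tested were. Higher by as much in both were 0 of the 8 and 19.0% of all genes. The counts of T cell markers moved the same way: relative to their median level in each library, *Srgn* differed by -0.05 and 0.17 log2 units and *Gzmb* by -0.26 and -0.48. On that scale 0 of the 8 were lower by over 1 log2 unit in both, beside 0.992% of all genes, and 1 of the 8, *Lamp1* (2.10 and 2.31), was higher by as much, beside 44.6% of all genes. *Nkg7* (-0.54 and 0.79), *Ctsw* (-0.77 and 0.67) and *Prf1* (-0.36 and 1.24) took opposite signs in the 2 experiments relative to the same median. Of the 21 epithelial markers, 18 were higher in replicates 2 and 4, and their part in these differences was not tested.

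**Figure D4:**
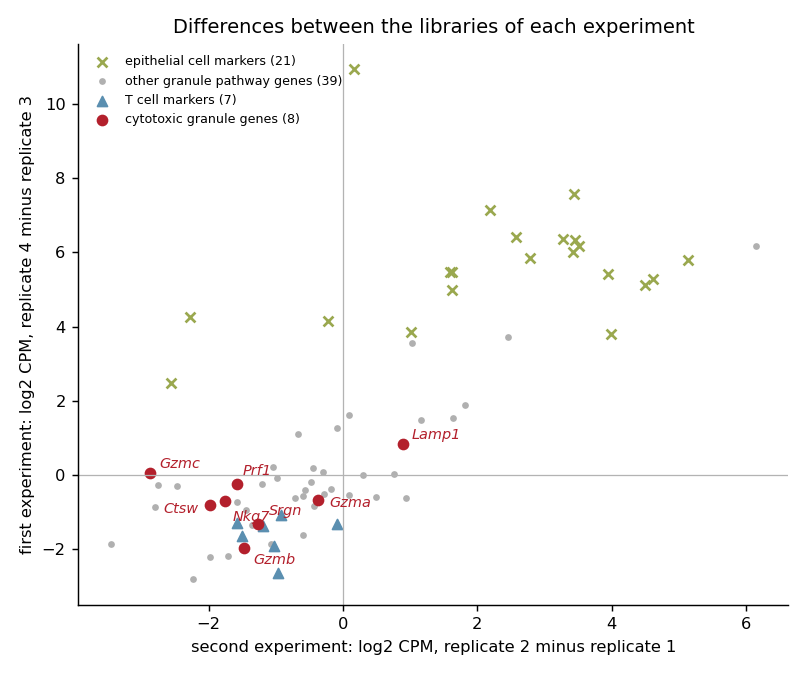
Difference in log2 CPM between the libraries of the second experiment (x axis, replicate 2 minus 1) and of the first (y axis, replicate 4 minus 3), one point per gene that passed the filter. The 8 granule genes (red, named) lie mostly with the 7 T cell markers in the lower left, where *Gzmb* is at -1.47 and -1.97. *Lamp1* lies in the upper right, as do 18 of the 21 epithelial markers.

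Of the wider granule pathway, 55 of 56 listed genes were in the table and 39 passed the filter. By edgeR, 0 of the 39 had an adjusted or an unadjusted p under 0.05 between the experiments, beside 0% and 2.12% of all genes tested. By DESeq2 there were 0 by either measure as well, beside 0.351% and 4.44% of all genes. By overlap of CPM, 8 of the 39 were above (among them *Vamp8* and *Rab7*) and 3 below in the second experiment, where 14.7% and 14.4% of all genes tested were. All 15 listed genes of granule transport and fusion were above 3 counts in every library. The highest of them by mean TPM were *Vamp8*, a SNARE of secretory lysosomes (342 TPM, with 95.9, 134.7, 90.4 and 60.2 CPM in replicates 1 to 4), *Rab7*, a GTPase of late endosomes (311 TPM, with 412, 307, 279.7 and 157 CPM), and *Lyst*, the lysosomal trafficking regulator lost in beige mice (173 TPM). *Lyst* followed the same libraries as *Srgn*, with 1054 and 410 against 1086 and 425 CPM. *Vamp7* was the lowest of the list at 13.8 TPM.

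Sorting and maturation genes were also all present, 8 of 8 above 3 counts in every library. *M6pr*, a receptor for mannose phosphate, was the most even of those named from this list, at 191, 136, 149.6 and 130.5 CPM. *Igf2r*, the other such receptor, had 274, 101, 232 and 119.9 CPM. *Cd63*, a tetraspanin of granule membranes and of many other lysosomes, had 1.80 and 149 against 0.893 and 86.1 CPM. Nearly all of it was in the pair of libraries with high epithelial markers, whose part in it was not tested. *Ctsl* was the lowest of this list at 5.61 TPM.

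Of the inhibitors, *Serpinb9*, which blocks granzyme B in the cell that makes it (chromosome 13, 33004541 to 33017955, plus strand), had 433 and 91.8 against 346 and 48.9 CPM. This is the order of libraries of *Gzmb*. *Serpinb6b* had 358, 32.3, 328 and 90.3 CPM in replicates 1 to 4, whereas *Serpinb6a*, which overlaps *Ripk1* on the other strand, had 21.3, 119.1, 6.92 and 95.3 CPM and was high in the libraries with high epithelial markers. *Serpinb9b* had 1.66 CPM in replicate 1 and 0 counts in the others. Serpin genes of this cluster are close copies, and the split of reads among them is uncertain. By mean TPM the order was *Serpinb6b* (258), *Serpinb9* (188), *Serpinb6a* (90.5) and, at the end of the list, *Serpinb9b* (0.637).

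Of the death ligands, the other route by which these cells can kill, *Fasl* (chromosome 1, 161780692 to 161788495, minus strand) was the highest at 316 TPM, above *Tnfsf10* (61.6) and *Tnf* (22.0), with *Lta* lowest; 30 of its counts were in replicate 3 and 1, 1 and 0 in replicates 1, 2 and 4. *Fasl* had 279 and 133 against 383 and 105 CPM, lower in replicates 2 and 4 as the T cell markers were. *Tnfsf10*, which encodes TRAIL, had 192 and 97.3 against 71.2 and 67.0 CPM, which did not overlap (log2 fold change 1.07, standard error 0.62, adjusted p = 0.9997, edgeR).

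Among the transcription factors of the cytotoxic programme, *Stat4* (263 TPM), *Runx3* (174 TPM) and *Tbx21*, which encodes T-bet (163 TPM), were the highest, and *Eomes*, the T-box factor of NK and memory CD8+ cells, had 0 counts in all 4 libraries. *Runx3* had 249 and 75.9 against 630 and 137 CPM. *Tbx21* had 118 and 16.9 against 328 and 181 CPM, with the experiments apart in the same direction as for *Prf1* and *Ctsw* (log2 fold change -1.91, adjusted p = 0.9997, edgeR). *Stat4* had 566 and 143 against 392 and 85.1 CPM, with the order of libraries of *Gzmb*. With 4 libraries, no correlation between a factor and a granule gene was computed.

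**Figure D5:**
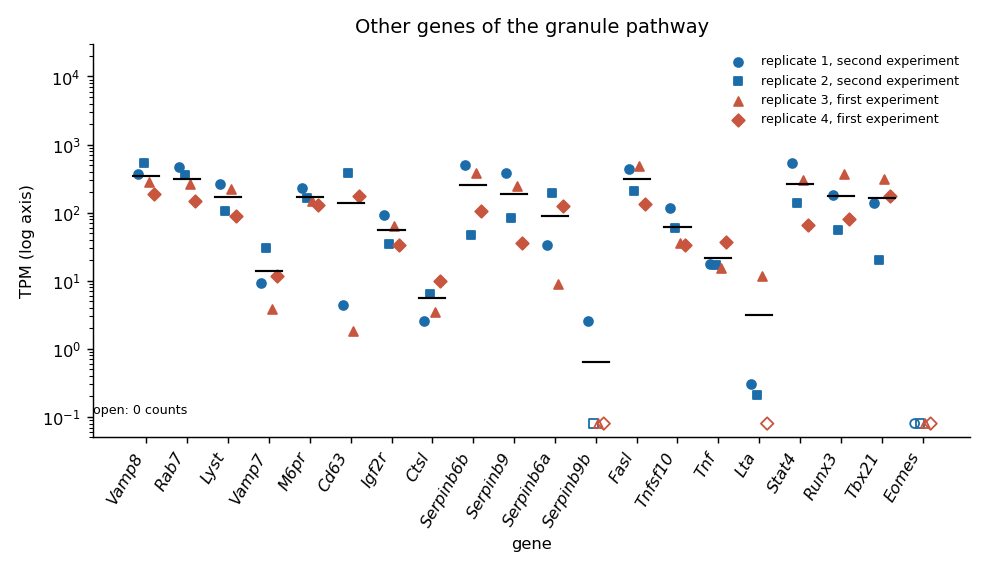
Level in TPM (log axis) of the other granule pathway genes, the 3 highest and the lowest by mean TPM of 5 lists, from left to right transport and fusion, sorting and maturation, inhibitors, death ligands and transcription factors. Symbols are single libraries (blue, second experiment; red, first experiment), black bars the mean of 4, and open symbols 0 counts. *Cd63* and *Serpinb6a* are high in replicates 2 and 4, *Serpinb9* and *Stat4* are low there, and *Eomes* had 0 counts in all 4.

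Likeness of pattern was measured as the root mean square difference of log2 CPM, centred on the mean of the 4 libraries, among the 8089 genes with at least 10 counts in every library. The nearest genes were *Chd6* (0.031), *Kdm1b* (0.042) and *Lims1* (0.047) for *Gzma*, *Inpp1* (0.081), *Cir1* (0.11) and *Utp18* (0.14) for *Gzmb*, *Tbc1d9b* (0.036), *Fbxl14* (0.072) and *Asb2* (0.077) for *Prf1*, and *Nudt3* (0.042), *Chsy1* (0.046) and *Atxn2l* (0.056) for *Nkg7*. Among the granule genes, the one closest to *Prf1* was *Ctsw*, at a difference of 0.30 and place 53 of all genes, and *Srgn* was the closest to *Nkg7* (0.32, place 471), to *Gzmb* (0.64, place 737) and to *Gzma* (0.49, place 2174). *Prf1* was 1.63 from *Gzmb* (place 6564). With 4 libraries that differ in depth and in the markers of other cells, many genes share any such pattern, and nothing about shared control follows.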

How the data were processed

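RNA-seq libraries of 4 SI-LP NKT samples were prepared, per the labels, with a kit for low input and sequenced as paired reads. According to the methods the authors aligned reads with HISAT2. The authors deposited raw counts per gene, and the header of the table names featureCounts 1.6.4, exons of RefSeq genes, read pairs, primary alignments and no strand option. The methods name GRCm39, whereas the labels name GRCm38.p6 and the deposited gene positions are those of GRCm38. Gene lengths deposited by the authors served for TPM. The table has 2 further library columns that match no sample label and were not used. Total counts are given in the report; a count of 0 allows up to 3 counts.

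CPM was computed with TMM factors. Genes that reached 10 counts in 2 or more libraries were fitted with the edgeR quasi-likelihood test (second against first experiment) and adjusted over all 11689 genes after Benjamini and Hochberg; standard errors were derived from its F statistic. DESeq2, other scalings and filters and leaving out each replicate were alternatives, and values without both replicates 2 and 4 were added after seeing the data. The named genes were the 10 members, the 3 highest genes and the lowest of each pathway list, the 3 genes nearest to *Gzma*, *Gzmb*, *Prf1* and *Nkg7*, and the 2 highest of each marker list that is described. Further marker genes at or near 0 were named after their values were seen. Members and lists were chosen with earlier results of these data known. Statistics ran in edgeR 4.0.16 with limma 3.58.1 and in DESeq2 1.42.0, under R 4.3.3. Other values were computed in Python 3.11.15 with pandas 2.3.3, scipy 1.17.1 and numpy 2.4.6.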

Additional observations from a re-analysis of the deposited data

Results flagged for a closer look

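In 4 libraries, 1 library stood far from the other 3 for *Gzmk* and *Gzmm*. The gap between replicate 3 and the next library, divided by the range of all 4 in CPM, was 1 for *Gzmk* (4.02 CPM in replicate 3, 0 in the others) and 0.893 for *Gzmm* (0.893 CPM in replicate 3, at most 0.0958 in the others), above Dixon's critical value for 4 values at the 95% level. These are 18 and 4 counts, respectively. With the other libraries at 0 the ratio is 1 whatever the count in replicate 3, so for *Gzmk* it adds nothing to the counts. The 4 counts of *Gzmm* are near the floor of 3 counts. Of 18 quantities examined, chance flags about 1 in 20.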

How the results depend on the processing

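The count of granule genes called between the experiments was 0 under every alternative run, as was that of pathway genes; without replicate 1, *Ctsw*, *Gzmc* and *Prf1* had an unadjusted p under 0.05 (3 of 8, beside 3.07% of all genes in that fit). When genes with few counts were kept, *Tbx21* was the only pathway gene with an unadjusted p under 0.05 (1 of 41, or 2.44%, beside 3.12% of all genes, edgeR). The same held when 10 counts were required in every library (1 of 37, or 2.70%, beside 3.18% of all genes, edgeR). Both shares were below those of all genes, but a share over the list cannot show whether *Tbx21* itself stands out. Its calls in the fits with 1 replicate left out are not given, since these leave 1 library in a group. Over all genes the count of 0 became 60 without a filter on low counts and 41 with DESeq2, and it ran from 0 to 7 with 1 replicate left out (7 without replicate 3, 6 without replicate 4). The median percentile of the granule genes (94.0) was 87.4 with CPM in place of TPM, since CPM does not correct for length. Neighbours in the same order in every library (2) numbered 2 to 5 with 1 replicate left out (5 without replicate 2, 4 without replicate 4), where fewer libraries have to agree. Granule genes lower by over 1 log2 unit within both experiments (2) were 1 with library size alone (*Gzmb*, beside 4.77% of all genes), 0 relative to the median T cell marker (beside 0.992%), and 4 at a difference of over 0.5 log2 units (beside 17.5%); *Lamp1* was higher in both under each of these 3 settings, as were 22.6%, 44.6% and 25.7% of all genes. Apart from the construction of these alternatives the cause was not tested. The mean of *Gzmb* (351 CPM) ran from 237 to 437 CPM with 1 replicate left out and was 531 CPM without replicates 2 and 4, the libraries with high epithelial markers (added after seeing the data), and that of *Gzmk* was 0 without replicate 3. With 4 libraries, leaving some out cannot move a mean by more than 1 SD, so these shifts do not show stability. No paired analysis was possible because the labels hold 1 group. At the depth of these libraries, levels below 0.287 to 0.753 CPM (3 counts) cannot be told from 0.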
